A study of Homo sapiens with 33 samples.

Results

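The 4 RNA-seq libraries of human embryonic stem cells whose labels end in Rep3 were compared with the 8 that end in Rep1 or Rep2, after each genotype's own mean had been subtracted. The series holds 33 samples, of which 12 are RNA libraries and the rest are chromatin immunoprecipitation (ChIP) or input libraries. RNA was read from 3 libraries of each of 4 genotypes, so that every genotype gave 1 library to the Rep3 group and 2 to the other. Of 35805 genes in the RNA table, 14917 on the autosomes had a mean of at least 1 RPM (read per 1e6 mapped reads) over the 12 libraries and were tested. The 5 genes just above that limit had means of 1.0004 to 1.0028 RPM, and the 5 just below it 0.99689 to 0.99866 RPM.

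All libraries came from the H9 line, an embryonic stem cell line that is widely used as a reference for the pluripotent state. EZH2+/+ cells were the parental line, EZH2-/+ cells carried a CRISPR/Cas9 mutation on 1 allele, and EZH2-/- cells were mutated on both alleles. EZH2-/- +EZH2 cells were the null line with a doxycycline-induced EZH2 transgene. The mutant lines were clonal, the null line had been made from an EZH2-/+ line that carried the transgene, and all cells grew on irradiated mouse CF1 feeders in serum replacement medium with FGF2. Live SSEA4-positive cells were sorted before RNA was extracted, so the libraries hold cells that kept this surface marker of undifferentiated cells. The labels do not say whether a library number marks a culture, a passage or a day of preparation. The p-values below therefore measure the spread between these libraries, which may be technical in part.

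Human pluripotent cells in culture are held undifferentiated by FGF2, acting through ERK, and by Activin or NODAL, acting through SMAD2 and SMAD3. The same NODAL signal drives primitive streak genes such as EOMES, GSC and MIXL1 when cells begin to leave pluripotency, and cultures hold low and variable levels of these transcripts. Cells at low oxygen stabilise hypoxia-inducible factors, which raise transcription of glycolytic genes.

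EZH2, the catalytic subunit of Polycomb repressive complex 2, followed the genotype labels in every library. It measured 68.6, 63.3 and 59.5 RPM in EZH2+/+ Rep1, Rep2 and Rep3, and 55.4, 52.3 and 45.7 RPM in EZH2-/+. It measured 11.5, 8.65 and 9.68 RPM in EZH2-/- and 271, 385 and 256 RPM in EZH2-/- +EZH2. The 3 libraries of a genotype lay close to each other, and the log2 difference of Rep3 from the others was -0.19 (SE 0.11, adjusted p = 0.185, limma). The summed level of 6 markers of undifferentiated cells was 2661 to 3455 RPM in Rep3 libraries and 2056 to 3509 RPM in the others. Definitive endoderm markers summed to 11.5 to 76.7 RPM in Rep3 libraries and 15.4 to 156 RPM in the others. For 5 mesoderm markers, the sums were 4.79 to 143 RPM and 24.3 to 181 RPM. For fibroblast markers, the sums were 232 to 364 RPM and 255 to 530 RPM. At an adjusted p under 0.05 (limma), 3 of the 4 mesoderm markers tested were called lower. So were 1 of 6 undifferentiated, 1 of 5 endoderm and 1 of 5 fibroblast markers tested, against 18.9% of all genes tested. The trophectoderm marker CGA was at 0 in all libraries. In bulk RNA, fewer cells of a type and less RNA per cell cannot be told apart.

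Reads on genes ran from 16587860 to 36589089 per library, and 3 reads were worth 0.0528 to 0.12 RPM. The depth did not separate Rep3 from the others (exact permutation test within genotypes, two-sided, n = 4 and 8, p = 0.58, adjusted over 5 library properties 0.725). The share of reads that fell on genes was 67.1%, 65.1%, 67.7% and 66.3% in the 4 Rep3 libraries and 61.6% to 65.5% in the others (difference 2.68 percentage points, exact permutation p = 0.0247, adjusted 0.0617). The 10 most abundant genes took a larger share of reads in Rep3 libraries by 0.639 percentage points (exact permutation p = 0.0123, the smallest that the 81 assignments allow, adjusted 0.0617). Values below are scaled to all mapped reads, as the study scaled them.

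After subtraction of the genotype means, the 6 pairs of Rep3 libraries had correlations across genes of 0.399 to 0.664, with a median of 0.514. The 12 pairs that share the number Rep1 or Rep2 had 0.126 to 0.692, with a median of 0.308. Rep1 with Rep2 libraries of different genotypes had -0.286 to 0.329, with a median of 0.154. Because deviations within a genotype sum to 0, Rep3 libraries went against the others by construction, with a median of -0.382. For the same reason a shift shared by Rep3 libraries raises the correlations among Rep1 and Rep2 libraries. These are correlations across 14917 genes, which are not independent replicates, and they are given as a description.

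**Figure D1:**
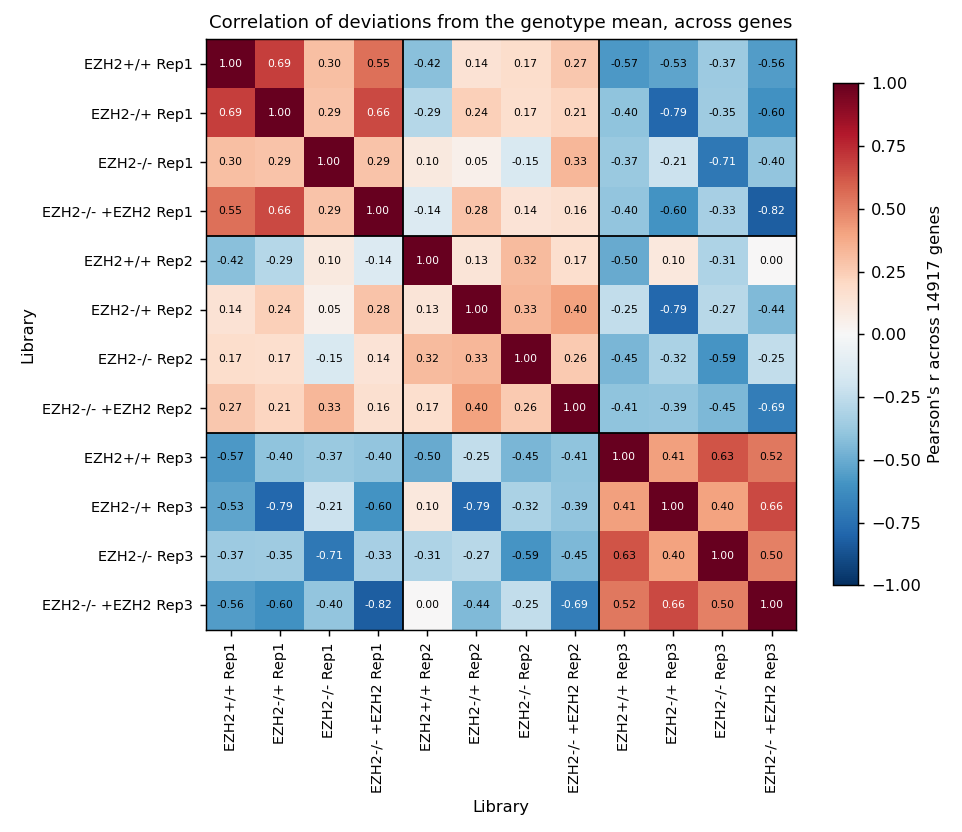
Pearson's r across 14917 genes between the deviations of each pair of the 12 libraries from their genotype means in log2(RPM + 0.1), with libraries ordered by number and then by genotype and colour running from -1 (blue) to 1 (red). The 4 Rep3 libraries form a block in the lower right corner with r from 0.399 to 0.664.

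Rep3 libraries differed from the others at 5158 genes, which is 34.6% of the genes tested (limma, Benjamini-Hochberg adjusted p under 0.05). Of these, 2338 (15.7%) were higher and 2820 (18.9%) lower. The centred values of the 2 groups did not overlap at 4016 genes (26.9%), with Rep3 above at 1837 (12.3%) and below at 2179 (14.6%), and the shift had the same sign in all 4 genotypes at 6689 genes (44.8%), including 4823 of the called genes. Most differences were small, with a median absolute difference of 0.257 on the log2 scale over all genes tested, called or not. Of the genes tested, 119 (0.798%) were called and at least 2-fold higher and 304 (2.04%) called and at least 2-fold lower. The median difference over all genes tested was -0.03. With the library number as a replicate block, 2406 genes (16.1%) were higher and 2952 (19.8%) lower. Where values were scaled to the reads on genes instead of all mapped reads, a choice made after seeing the data, 1828 genes were higher and 3553 lower, so that 34% rather than 45.3% of the calls were higher.

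Rep2 and Rep1 libraries were compared in a fit with the library number as a term, which sets 4 libraries against 4. That contrast is less precise than 4 against 8. It called 4 genes (0.0268% of those tested), with 2 higher (0.0134%) and 2 lower (0.0134%) in Rep2. These genes are named here because of their number and after their values were seen. ANXA1, an annexin, was higher in Rep2 by 1.86 on the log2 scale (adjusted p = 0.0336) and FOSB, an immediate early transcription factor, by 2.80 (adjusted p = 0.0336). LRAT, which esterifies retinol, fell by 1.60 (adjusted p = 0.0136) and ANK2, an ankyrin, fell by 0.84 (adjusted p = 0.0336). The median absolute difference between Rep2 and Rep1 was 0.118. At an unadjusted p under 0.05 there were 1470 such genes (9.85%). In the same fit, Rep3 against Rep1 alone gave 2121 higher (14.2%) and 2849 lower genes (19.1%). Rep3 against Rep2 alone gave 1549 (10.4%) and 1975 (13.2%).

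The size of the shift varied between the 4 Rep3 libraries. Each genotype has 1 of them, so genotype and single library cannot be told apart here. The standard deviation across genes of Rep3 minus the mean of Rep1 and Rep2 was smallest for EZH2+/+ at 0.401 and largest for EZH2-/+ at 0.714, with EZH2-/- at 0.489 and EZH2-/- +EZH2 at 0.563. For comparison, that of Rep2 minus Rep1 was 0.418 for EZH2+/+, above the 0.401 of its Rep3 shift. It was 0.373 for EZH2-/+, 0.378 for EZH2-/- and 0.321 for EZH2-/- +EZH2, below the Rep3 shift of each. The Rep3 shift is taken from a mean and Rep2 minus Rep1 from single libraries, so these values are not fully alike. An interaction test found no gene whose shift differed between genotypes at an adjusted p under 0.05 (limma, 0 genes, smallest adjusted p 0.152, 4 residual degrees of freedom), with 2753 genes (18.5%) at an unadjusted p under 0.05. With no filter on low values it called 467 genes. Without EZH2-/- +EZH2 Rep3 the counts fell to 1443 higher and 1862 lower, by more than for any other library.

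Long transcripts were lower and short transcripts higher in Rep3 libraries. Across the 14721 genes with an annotated canonical transcript, the log2 difference and transcript length had a Spearman's rho of -0.436. By genotype rho was -0.469 for EZH2+/+, -0.192 for EZH2-/+, -0.493 for EZH2-/- and -0.361 for EZH2-/- +EZH2, against -0.066 for Rep2 minus Rep1. Genes were ranked by length and cut into 10 sets of like size. In the set with the longest transcripts, with a median of 9385 bases, 53.1% were called lower and 2.38% higher, and the median difference was -0.40. In the set next to the shortest, with a median of 1230 bases, 35.9% were higher and 4.62% lower, and the median was 0.21. The shortest set, with a median of 625 bases, had 31.8% higher and 12.1% lower. GC content of the transcript followed the difference less closely, with a rho of 0.121. For a correction, genes were ranked by length and cut into 20 sets, and each library's median deviation within a set was subtracted. The same was then done for GC. After this correction 1680 genes were higher and 2140 lower, of which 1155 and 1558 had been called in that direction without it. What part the length of transcripts has in the differences below was not tested beyond that correction.

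Genes for the protein synthesis machinery and the respiratory chain rose together. Of 74 cytosolic ribosomal protein genes tested, 73 were higher and none lower, with a median of 0.55. Their centred values did not overlap between the groups at 73 genes, and the median shift was 0.29, 0.74, 0.43 and 0.77 in EZH2+/+, EZH2-/+, EZH2-/- and EZH2-/- +EZH2. RPL38, a protein of the large ribosomal subunit (chr17:74203582-74210655, GRCh38), measured 428, 404, 381 and 428 RPM in Rep3 of those genotypes. In Rep1 and Rep2 it ran from 199 to 297 RPM, with a median of 227, so that every Rep3 library lay above every other library. It was higher by 0.80 (SE 0.07, adjusted p = 5.14e-05). RPS25, RPS27 and RPL23 were higher by 0.83, 0.80 and 0.75. These transcripts are short, with a median of 827 bases over the list, and after the length and GC correction 56 of 74 were still called, with a median of 0.35.

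Of 71 nuclear genes for subunits of oxidative phosphorylation, 54 were higher and none lower, with a median of 0.41. ATP5H, a subunit of ATP synthase, measured 168, 139, 147 and 187 RPM in the 4 Rep3 libraries and 77.5 to 106 RPM in the others, with a median of 94.7. Again no Rep3 library reached down to the others, and the difference was 0.78 (SE 0.08, adjusted p = 8.61e-05). ATP5H overlaps KCTD2, and without strand their reads cannot be told apart. COX7A2, of cytochrome c oxidase, ATP5O, of ATP synthase, and UQCRB, of complex III, were higher by 0.71, 0.70 and 0.68. After correction, 39 of 71 were higher and 1 lower. Of 76 mitochondrial ribosomal protein genes, 39 were higher and none lower, among them MRPL33 at 0.66 and MRPS33 at 0.62, and 19 were higher and 4 lower after correction. Of 31 proteasome genes 10 were higher, with PSMA2, a subunit of the core particle, at 0.40, and 3 were higher and 1 lower after correction. That count was 21 without EZH2-/+ Rep3 and 6 without EZH2-/- +EZH2 Rep3.

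Mitotic genes went both ways, with 8 of 34 higher and 7 lower. CENPE, a kinesin of the kinetochore (chr4:103105806-103198409, GRCh38), measured 16.2, 14.9, 7.9 and 10.5 RPM in Rep3 of EZH2+/+, EZH2-/+, EZH2-/- and EZH2-/- +EZH2, and 19.2 to 48.7 RPM in the others, with a median of 29.1. All Rep3 libraries lay below all others, and the fall was 1.37 (SE 0.13, adjusted p = 6.21e-05). Its canonical transcript has 8541 bases. ASPM, which acts at the spindle pole, CENPF, a kinetochore protein, and MKI67, the Ki-67 antigen, fell by 1.25, 1.09 and 0.92. PTTG1, which encodes securin, and CCNB2, a mitotic cyclin, rose by 0.92 and 0.63. After the length and GC correction CCNB2 was not called, and the list had 2 genes higher and 9 lower. Of 43 DNA replication genes 6 (14%) were higher and 4 (9.3%) lower, and after correction 1 and 1.

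Of 26 genes of the apical and actin cytoskeleton, 11 were lower and 1 higher, and 7 were lower after correction. They include FLNC, an actin cross-linking filamin, at -0.92, TLN1, which links integrins to actin, at -0.73, and the myosin heavy chains MYH10 and MYH9 at -0.58 and -0.55. The median of that list changed sign under some settings, without EZH2-/+ Rep3 among them (0.03, against -0.08), and 6 were lower without that library and 4 without EZH2-/- +EZH2 Rep3. Of 14 laminin, collagen IV and basement membrane genes 7 were lower, with HSPG2, which encodes perlecan, at -1.01 and the laminin chains LAMA4 and LAMA5 at -0.66 and -0.56. After correction 1 of the 14 was lower, and leaving out any of 8 libraries left 2 to 4 lower, with 2 without EZH2-/+ Rep3 and 2 without EZH2-/- +EZH2 Rep3. Of 18 YAP and TEAD targets 7 were lower and 1 higher, including the transcription factor TEAD1 (-0.69), the phosphatase PTPN14 (-0.67) and the angiomotin AMOTL2 (-0.65), and 4 were lower after correction. Of 36 ribosome biogenesis genes 10 were lower and 3 higher. POLR1A, the large subunit of RNA polymerase I, fell by 0.86, UTP20, of the small subunit processome, by 0.78 and the helicase DDX21 by 0.74. After correction 7 of the 36 were lower and 2 higher, and 5 were lower without EZH2-/+ Rep3 or without EZH2-/- +EZH2 Rep3. SON and SRRM2, which encode proteins of nuclear speckles, and NKTR, a cyclophilin-related protein, fell by 0.68, 0.73 and 0.76.

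A few structural RNAs that lack a poly(A) tail were among the genes that fell, although the library kit selects polyadenylated RNA. RMRP, the RNA component of the RNase MRP complex (chr9:35657751-35658018, GRCh38), measured 0.765, 1.05, 0.238 and 0.879 RPM in the 4 Rep3 libraries, or 8 to 59 reads. In Rep1 and Rep2 it measured 2.44 to 17.4 RPM, with a median of 9.59, or 95 to 756 reads. The groups did not overlap, and the fall of 3.34 (SE 0.56, adjusted p = 0.00129) was the largest of any called gene. RPPH1, the RNA of RNase P, which lies against PARP2, fell by 2.98 (adjusted p = 0.00144). RN7SL1 and RN7SL2, the RNAs of the signal recognition particle, each fell by 2.46, with adjusted p of 0.00432 and 0.00599. They are near-identical copies, so the split of reads between them is uncertain, and RN7SL1 also overlaps RPS29. SNORD3A, the U3 small nucleolar RNA, fell by 2.22 (adjusted p = 0.0128) and was not called without EZH2-/- Rep3. GENCODE gives a small structural class to 5 of the genes tested, SNORD3A among them but not RMRP, RPPH1, RN7SL1 or RN7SL2, and of those 5, 4 were lower and 1 higher.

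Other noncoding transcripts also fell. PWAR5, a transcript of the imprinted Prader-Willi region that overlaps SNURF, measured 1.88, 1.73, 1.1 and 1.56 RPM in Rep3 libraries and 4.52 to 16.6 RPM in the others, with a fall of 2.47 (SE 0.20, adjusted p = 2.76e-05). AC092669.3 and RP11-624A21.1 fell by 1.97 and 1.81. Each of these 3 had no overlap between the groups. Of 1737 long noncoding RNAs 315 were higher and 296 lower, near the background. Of 16 replication-dependent histone genes, most of whose mRNAs end in a stem loop in place of a poly(A) tail, 6 were lower and none higher, led by HIST1H2BJ (-1.30) and HIST1H2BK (-0.92), and 10 were lower after correction. None of the 16 was called without EZH2-/- +EZH2 Rep3, and HIST1H2BK was not called with the replicate block (adjusted p = 0.0541).

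Of 18 genes of the NODAL and Activin pathway, 5 were lower and 1 higher, where 18.9% of all genes tested were lower. CER1, a secreted NODAL and BMP inhibitor (chr9:14719724-14722717, GRCh38), measured 3.06, 2.51, 84.8 and 5.76 RPM in Rep3 of EZH2+/+, EZH2-/+, EZH2-/- and EZH2-/- +EZH2. In Rep1 and Rep2 of the same genotypes, it measured 16.4 and 15.3, 36.6 and 358, 116 and 308, and 22.9 and 16.9 RPM. Rep3 was the lowest library of each genotype, and the fall was 2.68 (SE 0.68, adjusted p = 0.011). The ligand NODAL fell by 1.47 (SE 0.45, adjusted p = 0.0264), with 4.15, 2.78 and 33 RPM in Rep3 of EZH2+/+, EZH2-/+ and EZH2-/- +EZH2, where Rep1 and Rep2 held 9.46 to 99.2 RPM. In EZH2-/- cells NODAL was 218 RPM in Rep3 and 142 and 226 RPM in the others, within their range. NODAL overlaps RP11-104F15.9, and their reads cannot be told apart. LEFTY1, an inhibitor of NODAL that overlaps RP4-559A3.7, fell by 2.13 (SE 0.75, adjusted p = 0.0452), and its estimate ran from -2.83 to -1.01 when single libraries were left out. Its neighbour LEFTY2 was at -0.99 and was not called (adjusted p = 0.245). The SMAD co-repressor SKIL fell by 0.93 and the inhibitory SMAD7 by 0.69. SMAD7 was not called in the fit with a replicate block (adjusted p = 0.0549). Of the pathway's 18 genes, 6 were lower and 2 higher after correction, and 2 were lower without EZH2-/+ Rep3 or without EZH2-/- +EZH2 Rep3. Leaving out EZH2+/+ Rep1 or EZH2-/- +EZH2 Rep1 or Rep2 left 3 lower.

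Of 12 primitive streak and mesendoderm genes, 7 were lower and 1 higher, with a median of -1.08. EOMES, a T-box factor, measured 5, 2.28, 23.8 and 7.12 RPM in the 4 Rep3 libraries and 11.4 to 45.4 RPM in the others, with a fall of 1.85 (SE 0.37, adjusted p = 0.00322). Rep3 was lowest in every genotype. The homeobox genes GSC, MIXL1 and LHX1 fell by 1.99, 1.78 and 1.74, T (Brachyury) by 1.27, and the ligands FGF17, FGF8 and WNT3 by 1.85, 1.21 and 0.94. MIXL1 measured 7.01, 1.78 and 9.51 RPM in Rep3 of EZH2+/+, EZH2-/+ and EZH2-/- +EZH2, and 65.9 RPM in EZH2-/- Rep3, where Rep1 and Rep2 had 60.9 and 86 RPM. The list had a median shift of -0.99 for EZH2+/+, -2.06 for EZH2-/+, -1.30 for EZH2-/- +EZH2 and 0.05 for EZH2-/-. None of these genes passed the interaction test at a mean of at least 1 RPM. Left without EZH2-/+ Rep3, 1 of the 12 was called lower, and without EZH2-/- +EZH2 Rep3, 2. Of 14 definitive endoderm genes 3 were lower (21.4%), near the 18.9% of all genes tested. CER1 and the pioneer factor FOXA2 (-1.16) were among the 3, and 1 gene was lower without EZH2-/+ Rep3. The median of this list was -0.58 for Rep3 against the others and 0.51 for Rep2 minus Rep1.

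Of 19 feedback genes of the ERK pathway, 6 were lower and none higher, against 18.9% lower over all genes tested, with a median of -0.38, and 9 were lower and 2 higher after correction for length and GC. DUSP6, a phosphatase that ERK signalling induces and that acts on ERK, measured 8.89, 3.36, 20.6 and 6.56 RPM in the 4 Rep3 libraries and 17.7 to 62.9 RPM in the others, with a median of 27.2. Rep3 was lowest in each genotype, and the fall was 1.82 (SE 0.37, adjusted p = 0.00349). A noncoding gene that overlaps DUSP6 fell by 2.28, and their reads cannot be told apart. SPRY4, a receptor tyrosine kinase inhibitor, fell by 1.20, the ETS factors ETV5 and ETV1 by 1.06 and 0.77, and the Sprouty-related SPRED1 and SPRED2 by 0.59 and 0.49. When single libraries were left out, 5 to 8 of the 19 were lower.

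Of 23 core pluripotency genes, 6 were lower and 1 higher, against 18.9% lower over all genes tested, with a median of -0.22. Without EZH2-/+ Rep3 4 were lower and the median was -0.0233. POU5F1 measured 792, 948, 1524 and 1237 RPM in the 4 Rep3 libraries and 617 to 1315 RPM in the others, and was not called (0.12, SE 0.09, adjusted p = 0.346). SOX2 was not called either (0.24, adjusted p = 0.192). NANOG measured 20.3, 15.8, 87.5 and 51.3 RPM in Rep3 libraries and 22.4 to 92.4 RPM in the others. Its fall of 0.63 (SE 0.23, adjusted p = 0.0498) lay at the threshold, with estimates from -0.84 to -0.24 and a call in 3 of 12 fits when single libraries were left out, and it was not called with the replicate block (adjusted p = 0.0565). L1TD1, an RNA-binding protein of embryonic stem cells, measured 74.5, 56.5, 206 and 119 RPM in Rep3 libraries and 87.5 to 377 RPM in the others. It was lowest in Rep3 in every genotype and fell by 1.21 (SE 0.23, adjusted p = 0.00231). LIN28B, which blocks let-7 maturation, SALL4, a zinc finger factor, and PRDM14 fell by 0.66, 0.50 and 0.53. PRDM14 was called in 4 of 12 fits when single libraries were left out. Outside this list, the amino acid transporters SLC7A5, for large neutral amino acids, and SLC7A11, for cystine, fell by 1.15 and 1.25. Neither was called after the length and GC correction. SLC7A5 was called in 4 of 12 fits when single libraries were left out, with estimates from -1.56 to -0.5.

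Part of the hypoxia and glycolysis genes rose. Of 22 hypoxia response genes, 9 were higher and none lower, with a median of 0.79, and of 22 glycolysis genes 13 were higher and none lower, with a median of 0.40. DDIT4, an inhibitor of mTORC1 that hypoxia and other stresses induce (chr10:72273920-72276036, GRCh38), measured 156, 277, 38.7 and 134 RPM in Rep3 of EZH2+/+, EZH2-/+, EZH2-/- and EZH2-/- +EZH2. In Rep1 and Rep2 it ran from 17.3 to 181 RPM, with a median of 27.6. Rep3 was the highest library in the 3 mutant lines, and EZH2+/+ Rep2, at 181 RPM, lay above EZH2+/+ Rep3. The difference was 1.83 (SE 0.46, adjusted p = 0.0109). RP11-442H21.2, which overlaps DDIT4, was higher by 2.03. LDHA, lactate dehydrogenase A, measured 915, 1435, 406 and 1074 RPM in Rep3 and 488 and 1190, 326 and 707, 225 and 259, and 284 and 425 RPM in the others, a difference of 1.05 (SE 0.29, adjusted p = 0.0168). EZH2+/+ Rep2 was again the highest of its genotype.

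The median shift of the hypoxia list was 1.57 for EZH2-/+ and 1.31 for EZH2-/- +EZH2, but 0.11 for EZH2+/+ and 0.18 for EZH2-/-. Without EZH2-/+ Rep3, 2 of the 22 genes were called higher, and without EZH2-/- +EZH2 Rep3, 1. Leaving out EZH2+/+ Rep2 raised the count to 17, and leaving out EZH2+/+ Rep1, EZH2-/+ Rep1 or EZH2-/- +EZH2 Rep1 or Rep2 lowered it to 3 to 5. The hypoxia list had a median of 0.78 for Rep2 minus Rep1 too, though none of its members was called in that comparison. After the length and GC correction 7 hypoxia genes were higher. For glycolysis, 4 of 22 were higher after the correction, with a median of 0.31, 6 without EZH2-/+ Rep3 and 5 without EZH2-/- +EZH2 Rep3. MIR210HG, the host of miR-210, the lactate exporter SLC16A3, which overlaps CSNK1D, and PPFIA4, a liprin, rose by 1.92, 1.87 and 1.67. FAM162A, NDRG1, ANKRD37 and BNIP3, known targets of hypoxia-inducible factors, rose by 1.49, 1.49, 1.31 and 1.20, and ANKRD37 overlaps UFSP2. PFKFB4, which sets the level of an activator of glycolysis, ALDOC, an aldolase, ENO2, an enolase, and SLC2A1, a glucose transporter, rose by 1.44, 1.33, 0.77 and 0.72. RP11-192H23.5, which overlaps ALDOC, rose by 1.58. The redox regulator TXNIP and the sterol sensor INSIG2 rose by 1.47 and 1.14. In the 8 Rep1 and Rep2 libraries SLC16A3 ran from 4.78 to 152 RPM, with a median of 20.4, and the 4 Rep3 libraries held 105, 92.3, 42.8 and 85.1 RPM, so the pooled groups overlapped.

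Promoters are printed for 3 of these genes, since hypoxia-inducible factors are known to bind sites that hold ACGTG. Each runs from 250 bases before to 50 after the gene's RefSeq start (GRCh38.p14), 5' to 3' on the gene's strand, with ACGTG or its reverse complement CACGT in capitals, where overlapping matches run together. The DDIT4 window is chr10:72273674-72273973 on the plus strand with 1 match, ANKRD37 is chr4:185396591-185396890 on the plus strand with 3, and BNIP3 is chr10:131981874-131982173 on the minus strand with 2.
DDIT4: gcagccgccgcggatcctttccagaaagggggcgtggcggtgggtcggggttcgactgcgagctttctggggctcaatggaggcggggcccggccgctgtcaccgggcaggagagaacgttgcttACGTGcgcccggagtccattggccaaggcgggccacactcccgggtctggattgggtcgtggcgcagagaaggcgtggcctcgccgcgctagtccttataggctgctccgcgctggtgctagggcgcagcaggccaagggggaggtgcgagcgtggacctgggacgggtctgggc
ANKRD37: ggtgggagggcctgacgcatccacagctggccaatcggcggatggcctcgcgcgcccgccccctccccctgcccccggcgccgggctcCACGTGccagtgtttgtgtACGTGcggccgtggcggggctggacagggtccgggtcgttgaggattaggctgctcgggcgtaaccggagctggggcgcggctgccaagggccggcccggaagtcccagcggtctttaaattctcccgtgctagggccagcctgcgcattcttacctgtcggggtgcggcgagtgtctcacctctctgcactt
BNIP3: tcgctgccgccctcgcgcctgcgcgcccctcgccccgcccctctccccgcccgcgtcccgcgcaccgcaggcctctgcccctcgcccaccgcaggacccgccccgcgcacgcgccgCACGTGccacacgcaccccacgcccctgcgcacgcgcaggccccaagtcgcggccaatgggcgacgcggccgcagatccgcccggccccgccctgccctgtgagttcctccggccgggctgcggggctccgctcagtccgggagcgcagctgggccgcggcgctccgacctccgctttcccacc
A match on either strand was found in 10 of 19 hypoxia genes with a promoter in the table (52.6%), 5 of 8 of those called higher (62.5%), and 7 of 21 glycolysis genes (33.3%). The share was 26.5% of the 9960 tested genes with a promoter and 21.6% of all 27305 promoters. PFKFB4 and SLC2A1 had no match in this window. A match describes the letters only.

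Of 25 immediate early genes 5 were higher and 1 lower, against 15.7% higher and 18.9% lower over all genes tested, and after correction 3 and 1. FOS, a subunit of the AP-1 factor (chr14:75278774-75282230, GRCh38), measured 158, 173, 140 and 109 RPM in the 4 Rep3 libraries, above all others. In Rep2 of the same genotypes it measured 89.1, 77.8, 96.1 and 72.3 RPM, and in Rep1 11.8, 24.6, 40.2 and 24.1 RPM, so that the 3 sets of libraries did not overlap. Rep3 was higher than the others by 1.70 (SE 0.52, adjusted p = 0.0261), and Rep2 was above Rep1 by 1.85 (adjusted p = 0.0629). FOSB, which overlaps ERCC1, and DUSP1, a phosphatase of MAP kinases, rose by 2.53 and 1.00. FOSB was also called higher in Rep2 than in Rep1. The median of the list was 0.22 for Rep3 against the others and 0.55 for Rep2 minus Rep1. In the fit with a replicate block 9 of the 25 were higher. Without Rep3 of EZH2+/+, EZH2-/+, EZH2-/- or EZH2-/- +EZH2 the count was 3, 1, 3 and 2.

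Of 8 metallothioneins, metal-binding proteins that zinc and stress induce, 4 were higher and 1 lower, against 15.7% higher over all genes tested. MT2A measured 30.2, 41.8, 37.1 and 48.8 RPM in Rep3 libraries and 10.7 to 29.1 RPM in the others, a difference of 0.94 (SE 0.21, adjusted p = 0.00621), and every Rep3 library lay above every other. MT1M, MT1E and MT1F rose by 1.88, 1.28 and 0.65, and 2 of the 8 were higher without EZH2-/+ Rep3. Of 12 MHC class I genes 5 were higher and 1 lower, and 3 and 1 after the length and GC correction. B2M, the shared light chain, measured 43.1, 41.7, 64.2 and 57.5 RPM in Rep3 libraries and 21.9 to 41.7 RPM in the others, a difference of 0.67 (SE 0.09, adjusted p = 0.000382). The heavy chains HLA-B and HLA-E rose by 0.65 and 0.54, and TAP1, a peptide transporter, by 0.48.

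Single genes of neural and mesenchymal cells were higher. STMN2, a microtubule regulator of neurons, measured 35.6, 22.3, 17.3 and 12.4 RPM in Rep3 of EZH2+/+, EZH2-/+, EZH2-/- and EZH2-/- +EZH2. In Rep1 and Rep2 it measured 25.2 and 17.5, 4.75 and 3.89, 8.25 and 7.83, and 2.75 and 3.19 RPM. Rep3 was highest in every genotype, and the difference was 1.56 (SE 0.22, adjusted p = 0.000551). S100A4, a calcium-binding protein of mesenchymal cells, rose by 1.30, the neural tube factor OLIG3 by 1.62, the phospholipase PLA2G2A by 1.59, the delta-like protein DLK1 by 1.43, the CDK inhibitor CDKN1C by 1.12 and CRABP2, which binds retinoic acid, by 1.09. DLK1 was not called with the replicate block (adjusted p = 0.051). When single libraries were left out, DLK1 was called in 4 of 12 fits, with estimates from 0.75 to 2.09, and OLIG3 in 8. OLIG3, PLA2G2A and CRABP2 were not called after the length and GC correction. Of 11 neuronal genes 2 were higher and 1 lower, and of 11 neuroectoderm regulators 1 and 1. Of 10 trophectoderm and amnion genes 1 was higher and 0 lower, and of 20 fibroblast and mesenchyme markers 2 and 4. Over all genes tested 15.7% were higher and 18.9% lower.

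The lists differed in how alike their shifts were in the 4 genotypes. The ribosomal protein medians ran from 0.29 to 0.77 and the oxidative phosphorylation medians from 0.31 to 0.50. The definitive endoderm medians ran from -1.66 in EZH2-/+ to 0.09 in EZH2-/- +EZH2, and no list was tested for a difference between genotypes. Without the EZH2-/+ Rep3 library 37 of the 108 called genes named in the text were not called, and without EZH2-/- +EZH2 Rep3 also 37, against 6 without EZH2-/- Rep3 and 5 without EZH2+/+ Rep3. Of the 108, 65 were called in all 12 fits that leave out a library, and all 108 kept their direction in those fits. The 108 were picked by their calls in these same libraries, so a kept direction is no independent support.

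**Figure D2:**
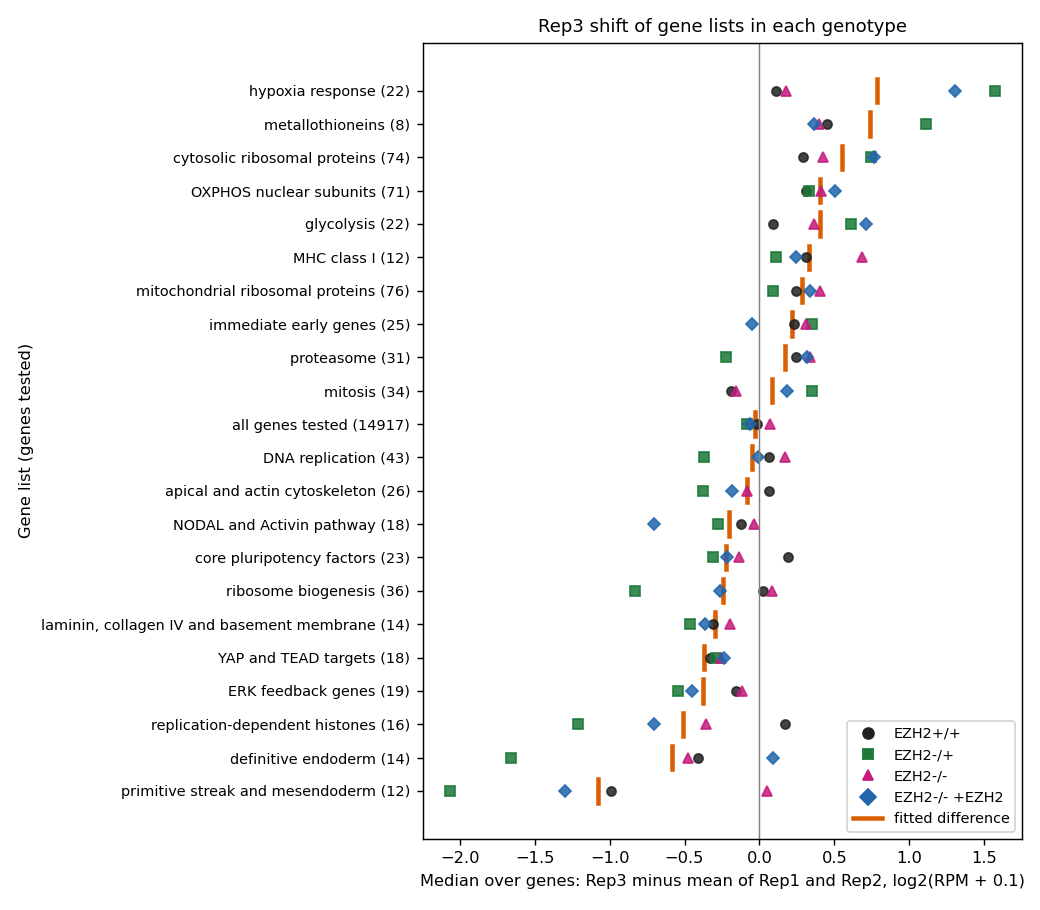
Median Rep3 shift over the genes of 22 lists in log2(RPM + 0.1), with 1 coloured marker per genotype and an orange bar for the median fitted difference over all 12 libraries; the number of genes tested is in brackets. The 4 markers lie together for ribosomal proteins (0.29 to 0.77) and apart for the hypoxia response (0.11 to 1.57) and mesendoderm (-2.06 to 0.05).

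Genes of chromosome 17 stood apart in EZH2-/- Rep3, and to a lesser extent in EZH2+/+ Rep3. This was seen after the data were examined. Of 996 genes tested there, 207 (20.8%) were called higher and 95 (9.54%) lower. Corrected for length and GC, the median shift was 0.335 for EZH2-/-, 0.105 for EZH2+/+, -0.064 for EZH2-/+ and 0.032 for EZH2-/- +EZH2. The medians of all other autosomes lay between -0.077 and 0.088 in every genotype. In EZH2-/- Rep3 82.7% of the chromosome 17 genes had a positive shift. By intervals of 10 Mb, the corrected EZH2-/- median was 0.055 and -0.085 over the first 20 Mb and 0.393 to 0.489 in each interval from there to the end. In EZH2+/+ it was 0.081 to 0.237 from 40 Mb on. The corrected level of those 532 genes was 0.297 in EZH2-/- Rep3 against -0.123 and -0.126 in Rep1 and Rep2, and 0.277 in EZH2+/+ Rep3 against 0.071 and 0.111. Of the 50 genes with the smallest interaction p, 32 lay on chromosome 17, which holds 6.68% of the genes tested. The copy number of DNA was not analysed here, and its part in these values was not tested. RPL38, RPL23, ATP5H, ALDOC and SLC16A3 are among the genes named above that lie on this chromosome. Without its genes 2161 genes were higher and 2745 lower, a choice made after seeing the data.

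**Figure D3:**
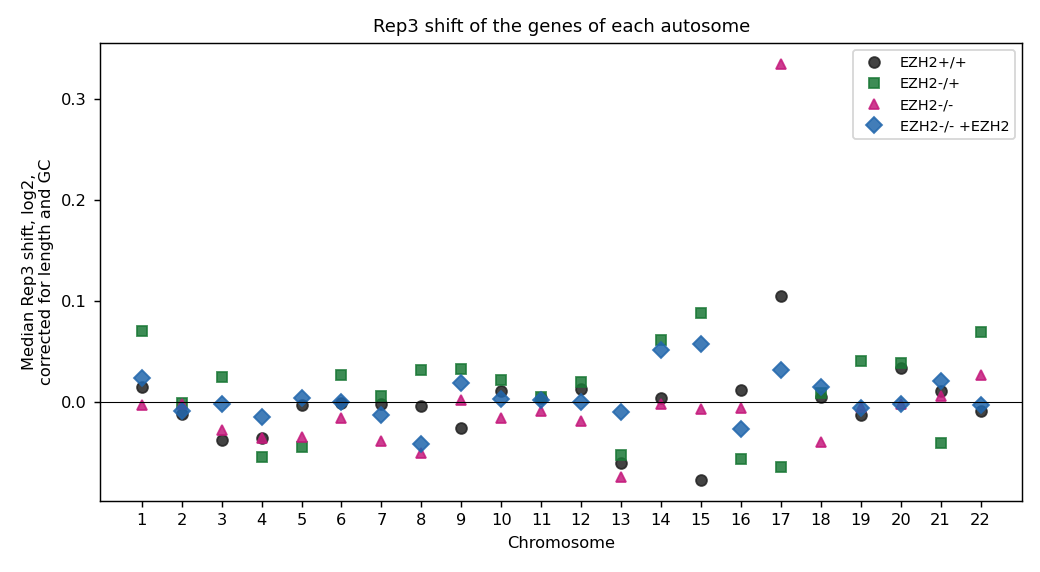
Median Rep3 shift in log2(RPM + 0.1), corrected for transcript length and GC, of the genes of each autosome (1 to 22 on the horizontal axis), with 1 marker per genotype. Chromosome 17 in EZH2-/- cells lies at 0.335, followed by chromosome 17 in EZH2+/+ cells at 0.105, and all other autosomes lie between -0.077 and 0.088.

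The promoters of the genes that differed were compared with those of all genes tested in the ChIP libraries of EZH2+/+ cells. The authors' 5 kb promoter windows were used. The median H3K4me3 level, on the authors' log2 scale, was 3.32 for the genes called higher, 3.48 for those called lower and 3.37 for all. H3K27me3, the mark that EZH2 sets, had medians of 0.716, 0.706 and 0.877, and was at least 1 above input at 29.9%, 28.6% and 35% of them. H3K27ac medians were 1.27, 1.21 and 1.20. Differences between these sets of genes changed sign for H3K4me3 and EZH2 when another window was taken for genes with several, so no order is read from them.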

How the data were processed

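RNA was measured in 12 libraries, 3 of each of 4 genotypes, prepared with a TruSeq kit that selects polyadenylated RNA and does not mark strand. The authors trimmed reads with Trim Galore 0.4.0, mapped them to GRCh38 with TopHat2 2.0.12 (versions per the submitters' processing notes), counted them without strand and deposited log2 RPM values per gene. Deposited log2 values of the ChIP libraries, also on an RPM scale, were used for promoters only. Whole reads could be recovered for 100% of nonzero values under 1000 reads (within 0.01 read), and larger values were not checked.

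RPM values were tested as log2(RPM + 0.1) with limma 3.58.1 in R 4.3.3 (empirical Bayes with trend), with genotype and Rep3 as terms, 7 residual degrees of freedom and an adjusted p under 0.05. The floor was a mean of 1 RPM. Transcript lengths came from GENCODE release 44, for 98.7% of the genes tested. The depth per library limits genes near 3 reads.

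Same-numbered Rep1 or Rep2 libraries of different genotypes had deviations that correlated at 0.126 to 0.692, and Rep1 with Rep2 libraries at -0.286 to 0.329. Deviations within a genotype sum to 0, so a shift shared by Rep3 libraries raises both. These values therefore cannot show that the numbers pair the libraries, and the labels give no pairing. A block on library number was fitted as an alternative.

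Named genes were EZH2, POU5F1, NANOG and SOX2, the 15 largest differences in each direction at a mean of at least 5 RPM and 1 sign in all genotypes, up to 6 called genes per list and up to 10 with the smallest interaction p, from which a part is printed. LEFTY2, T, FGF8, ANK2, LRAT and ANXA1 were chosen after their values were seen. The members and lists were chosen with earlier results of these data known. Other pseudocounts, filters, scalings, weights and left-out libraries were tried. The fits were tested on simulated data.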

Additional observations from a re-analysis of the deposited data

Results flagged for a closer look

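In 7 of 187 sets of 4 genotype shifts, 1 genotype lay farther from the others than Dixon's test allows, where chance alone gives about 1 in 20. RMRP had a shift of -5.35 in EZH2-/- cells, against -2.77 to -2.51 in the other genotypes. RN7SL1 had -4.17 in EZH2-/- cells, against -2.09 to -1.67. LAMA4 had -1.47 in EZH2-/+ cells, against -0.47 to -0.32. ALDOC had 0.32 in EZH2+/+ cells, against 1.6 to 1.78. The median of the interferon response list was 0.69 in EZH2-/- cells, against 0.10 to 0.15. The median of the metallothioneins was 1.11 in EZH2-/+ cells, against 0.37 to 0.45. The median of the proteasome list was -0.23 in EZH2-/+ cells, against 0.24 to 0.34.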

How the results depend on the processing

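The direction of the 108 called genes named in the text held under all 29 planned settings. The genes were picked by their calls in these same libraries, so a kept direction is given as a description only. With the replicate block, which uses the library number as a term, 2406 genes were higher and 2952 lower, 5059 of the calls were shared with the fit without it, and 4 of the 108 named genes (NANOG, SMAD7, DLK1 and HIST1H2BK) lost the call. After the length and GC correction 22 of the 108 were not called, LAMA5 among them (-0.56 before, -0.01 after), and with voom 13. With the block the hypoxia list had 12 genes higher and 1 lower. Without EZH2-/- +EZH2 Rep3, 1443 were higher and 1862 lower, and without all libraries of that genotype 1165 and 1642. Leaving out single libraries gave 1443 to 2491 higher and 1862 to 3101 lower genes, 0 in the interaction test in each, and 0 to 18 between Rep2 and Rep1. Rep2 against Rep1 gave 2 genes with a pseudocount of 1 RPM, 7 at a mean of at least 0.1 RPM, 1 with no filter and 8 after thinning to the shallowest library. With no filter, the interaction test called 467 genes. The other planned settings, from the pseudocount to voom on recovered reads, gave 1680 to 2728 higher and 2120 to 3244 lower genes. Chosen after seeing the data, scaling to the reads on genes gave 1828 and 3553, and leaving out chromosome 17 gave 2161 and 2745. POU5F1 moved from 0.12 to -0.09 with the length and GC correction, with or without the block, and TK1 from 0.09 to -0.12. Leaving out single libraries gave -0.2 (without EZH2-/- Rep3) to 0.42 for TK1, -1.1 to 0.13 for USP25 and -1.15 to 0.07 for C21orf91, both highest without EZH2-/- Rep3, with the same 3 values (-0.2, 0.13 and 0.07) without that genotype. The median of fatty acid synthesis genes turned to 0.034 with the correction, with or without the block. That of the apical and actin cytoskeleton turned to 0.027 with array weights and 0.028 without that EZH2-/+ genotype, and ran from -0.172 to 0.028 when single libraries were left out, highest without EZH2-/+ Rep3. With the first listed promoter window, the difference in median between genes called higher and lower was 0.125 for H3K4me3 (-0.158 before), 0.209 for EZH2 (-0.121 before) and 0.243 for H3K27me3 (0.01 before). The cause was not tested in any of these. With 3 reads worth up to 0.12 RPM, differences of genes near the floor could not be detected.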

Other observations

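Other lists are given by their counts, against 15.7% higher and 18.9% lower over all genes tested. Of 19 interferon response genes 4 were higher and none lower, of 18 NRF2 targets 6 and 5, of 22 autophagy and lysosome genes 8 and 1, of 23 cholesterol biosynthesis genes 3 and 2, and of 25 p53 targets 3 and 1. After the length and GC correction the autophagy and lysosome list had 5 higher and 2 lower. Without EZH2-/- +EZH2 Rep3, 3 autophagy and lysosome genes were higher, and without EZH2-/- Rep3, 1 interferon response gene. Of 13 fatty acid synthesis genes 1 was higher and 5 lower (2 lower after correction), of 21 genes of the unfolded protein response 1 and 3, of 21 heat shock protein genes 4 and 1, and of 13 genes for subunits of Polycomb repressive complex 2 and its partners 1 and 3. Of 18 WNT pathway targets none was higher and 1 was lower, of 14 BMP response genes 1 and 1, and of 12 Notch targets 2 and 1. Of 12 naive pluripotency genes 2 were higher and 2 lower.

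Among the genes with the smallest interaction p, a few were near 0 in EZH2-/- Rep3. ZNF681, a zinc finger gene, was at 0 RPM there, and its shift was -3.93 in EZH2-/- cells. ZNF675, near it on chromosome 19, was at 0.356 RPM with a shift of -3.10. USP25, a deubiquitinase, was at 0.623 RPM with a shift of -2.56, and at 10.1 RPM in EZH2-/- +EZH2 Rep3 with a shift of 1.12. C21orf91 was at 0.267 RPM with a shift of -2.88. TK1, thymidine kinase on chromosome 17, had shifts of -0.90 in EZH2-/+ and 0.97 in EZH2-/- cells. None of the 5 passed the interaction test after adjustment (limma), and the cause was not tested.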
